A study of Homo sapiens with 31 samples.

Results

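The TAL1, LYL1 and LMO2 loci were examined in 13 ChIP-seq peak lists of EVI1 and CTBP2 from human leukemia cells. Each locus was the gene body in GENCODE (hg19) plus 60 kb on either side, and a peak was a member when it touched this window. This gave 511 of the 533140 peaks in all lists, of which 161 lay at TAL1, 221 at LYL1 and 129 at LMO2. Merged wherever they shared 1 bp or more, the 511 peaks formed 84 sites. A site is named by the distance of its middle from the reference promoter of the gene, with positions downstream of the start site positive. TAL1 (ENSG00000162367) lies on the minus strand at chr1:47681962-47697897, LYL1 (ENSG00000104903) on the minus strand at chr19:13209847-13213975, and LMO2 (ENSG00000135363) on the minus strand at chr11:33880122-33913623. LMO2 distances count from its proximal promoter, and the distal promoter lies at -22.3 kb.

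MUTZ3 is an EVI1-expressing acute myelomonocytic leukemia line, and MOLM1 is an EVI1-expressing line from a chronic myeloid leukemia in blast crisis. The lists came from unmodified MUTZ3 (1 EVI1 and 1 CTBP2 library), from MUTZ3 with a retroviral 4× PLASS construct (2 CTBP2 libraries), from untreated MOLM1 carrying a dox-inducible shRNA against EVI1 (1 CTBP2 library), and from MUTZ3 with a lentiviral, dox-inducible 4xPLDLS construct at 72 h (2 untreated and 2 dox libraries for each of EVI1 and CTBP2). PLDLS is the short motif through which EVI1 holds CTBP, so that 4xPLDLS competes for CTBP, and PLASS is its mutated control. The inducible MUTZ3 line was a bulk population and the MOLM1 line was 1 clone. All 8 libraries of the inducible line carried the construct, and the dox groups differed from the untreated groups by the added drug as well as by the induced peptide; no dox control without 4xPLDLS was analysed here. The sources do not say that replicates were separate cultures, so p-values measure only the spread between these libraries. In the limma fits below that spread was pooled over sites.

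TAL1 and LYL1 are basic helix-loop-helix transcription factors that bind E-boxes together with E proteins such as TCF3. LMO2 does not bind DNA itself and bridges TAL1 or LYL1 to LDB1 and GATA factors. The proteins act in blood stem and progenitor cells, and each gene can act as an oncogene in leukemia. Their expression in stem cells is driven by promoters and by distal elements, among them the TAL1 stem cell enhancer downstream of the gene and a series of LMO2 elements that reaches far upstream of its promoters. EVI1 is a zinc finger transcription factor of stem cells, and CTBP2 is a corepressor without DNA contacts of its own that is recruited by proteins with a PLDLS-like motif.

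The bases from 100 before to 100 after the EVI1 summit of untreated replicate 1 are shown for the promoters of the 3 genes, for the TAL1 site at the stem cell enhancer distance, for the TAL1 site with the highest EVI1 value in that library, for the LMO2 site called in all 13 lists, and for the LYL1 site at -15.6 kb, which among sites that lost their CTBP2 calls with dox had the highest EVI1 value with dox. They are the GRCh37 plus strand, 5′ to 3′. Capitals mark, on either strand, the letters AGATAA found in many sites of GATA factors, the letters AGGAAG of ETS factors and the letters TGTGGT of RUNX factors.
TAL1 -0.1 kb: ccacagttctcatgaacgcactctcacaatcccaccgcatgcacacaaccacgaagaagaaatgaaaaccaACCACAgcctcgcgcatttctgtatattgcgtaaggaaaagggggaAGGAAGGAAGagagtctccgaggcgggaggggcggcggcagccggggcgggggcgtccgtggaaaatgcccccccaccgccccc
TAL1 +19.6 kb: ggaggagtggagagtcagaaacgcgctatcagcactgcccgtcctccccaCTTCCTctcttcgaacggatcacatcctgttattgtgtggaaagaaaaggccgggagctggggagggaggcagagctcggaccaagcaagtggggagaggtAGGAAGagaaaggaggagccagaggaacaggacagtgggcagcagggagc
TAL1 -10.0 kb: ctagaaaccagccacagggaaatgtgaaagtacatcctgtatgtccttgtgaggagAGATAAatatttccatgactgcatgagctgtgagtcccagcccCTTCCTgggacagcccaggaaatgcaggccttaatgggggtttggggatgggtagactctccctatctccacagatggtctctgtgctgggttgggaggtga
LYL1 -1.2 kb: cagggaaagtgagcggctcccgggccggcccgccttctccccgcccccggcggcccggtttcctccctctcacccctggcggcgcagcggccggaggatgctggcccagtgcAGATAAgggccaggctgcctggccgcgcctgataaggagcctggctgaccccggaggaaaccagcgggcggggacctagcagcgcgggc
LYL1 -15.6 kb: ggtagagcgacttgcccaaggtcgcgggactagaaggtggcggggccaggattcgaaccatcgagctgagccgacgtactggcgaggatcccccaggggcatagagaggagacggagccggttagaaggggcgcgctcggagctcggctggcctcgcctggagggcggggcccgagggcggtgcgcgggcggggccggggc
LMO2 0.0 kb: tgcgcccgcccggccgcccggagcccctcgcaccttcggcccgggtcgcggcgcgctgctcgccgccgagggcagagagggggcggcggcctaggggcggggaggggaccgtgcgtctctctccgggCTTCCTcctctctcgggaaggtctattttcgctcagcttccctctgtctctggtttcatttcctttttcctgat
LMO2 -24.2 kb: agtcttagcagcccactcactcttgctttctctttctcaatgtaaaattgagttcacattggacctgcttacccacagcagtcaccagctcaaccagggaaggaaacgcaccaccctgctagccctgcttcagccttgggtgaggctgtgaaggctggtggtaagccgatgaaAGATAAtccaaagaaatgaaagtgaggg
The first of these, at the TAL1 promoter, spans chr1:47697499-47697699 and holds 2 overlapping AGGAAG matches and 1 TGTGGT match. The window at +19.6 kb spans chr1:47677684-47677884 and holds 2 AGGAAG matches on opposite strands and 1 E-box (the letters CANNTG). The window at -10.0 kb spans chr1:47707353-47707553 with 1 AGATAA, 1 AGGAAG and 1 E-box. The LYL1 promoter window spans chr19:13213553-13213753 with 1 AGATAA, and the LYL1 -15.6 kb window, chr19:13228826-13229026, held no match to any of the motifs and had a GC content of 72.1%. The LMO2 promoter window spans chr11:33891338-33891538 with 1 AGGAAG, and the LMO2 -24.2 kb window spans chr11:33915423-33915623 with 1 AGATAA. Of 62 member windows with an EVI1 summit in an untreated library, 36 (58.1%) held AGGAAG, against 43.0% of 50453 EVI1 summit windows of the same length in untreated replicate 1. AGATAA was found in 6 member windows (9.68%) against 8.93%, TGTGGT in 7 (11.3%) against 19.3%, and CANNTG in 36 (58.1%) against 64.8%. GACAAGATA, the site of the first EVI1 finger domain, which shares 5 letters with AGATAA, was in none of the 62 member windows and in 0.315% of all windows. A match describes letters only.

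EVI1 and CTBP2 were each called in at least 1 list at 49 of the 84 sites, against 44.6% of the 131683 merged sites of the genome. EVI1 alone was called at 18 and CTBP2 alone at 17, and 30 sites appeared in a single list. For these last counts the share over the genome was not computed, so they are not called high or low. In the map of called sites, the calls of both proteins clustered at the same positions of each locus. Sites called in all 13 lists numbered 6, which were TAL1 -7.8, +19.6 and +52.3 kb, LYL1 -47.3 and -52.9 kb, and LMO2 -24.2 kb. Over the whole genome 2.33% of merged sites were in all 13 lists.

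**Figure D1:**
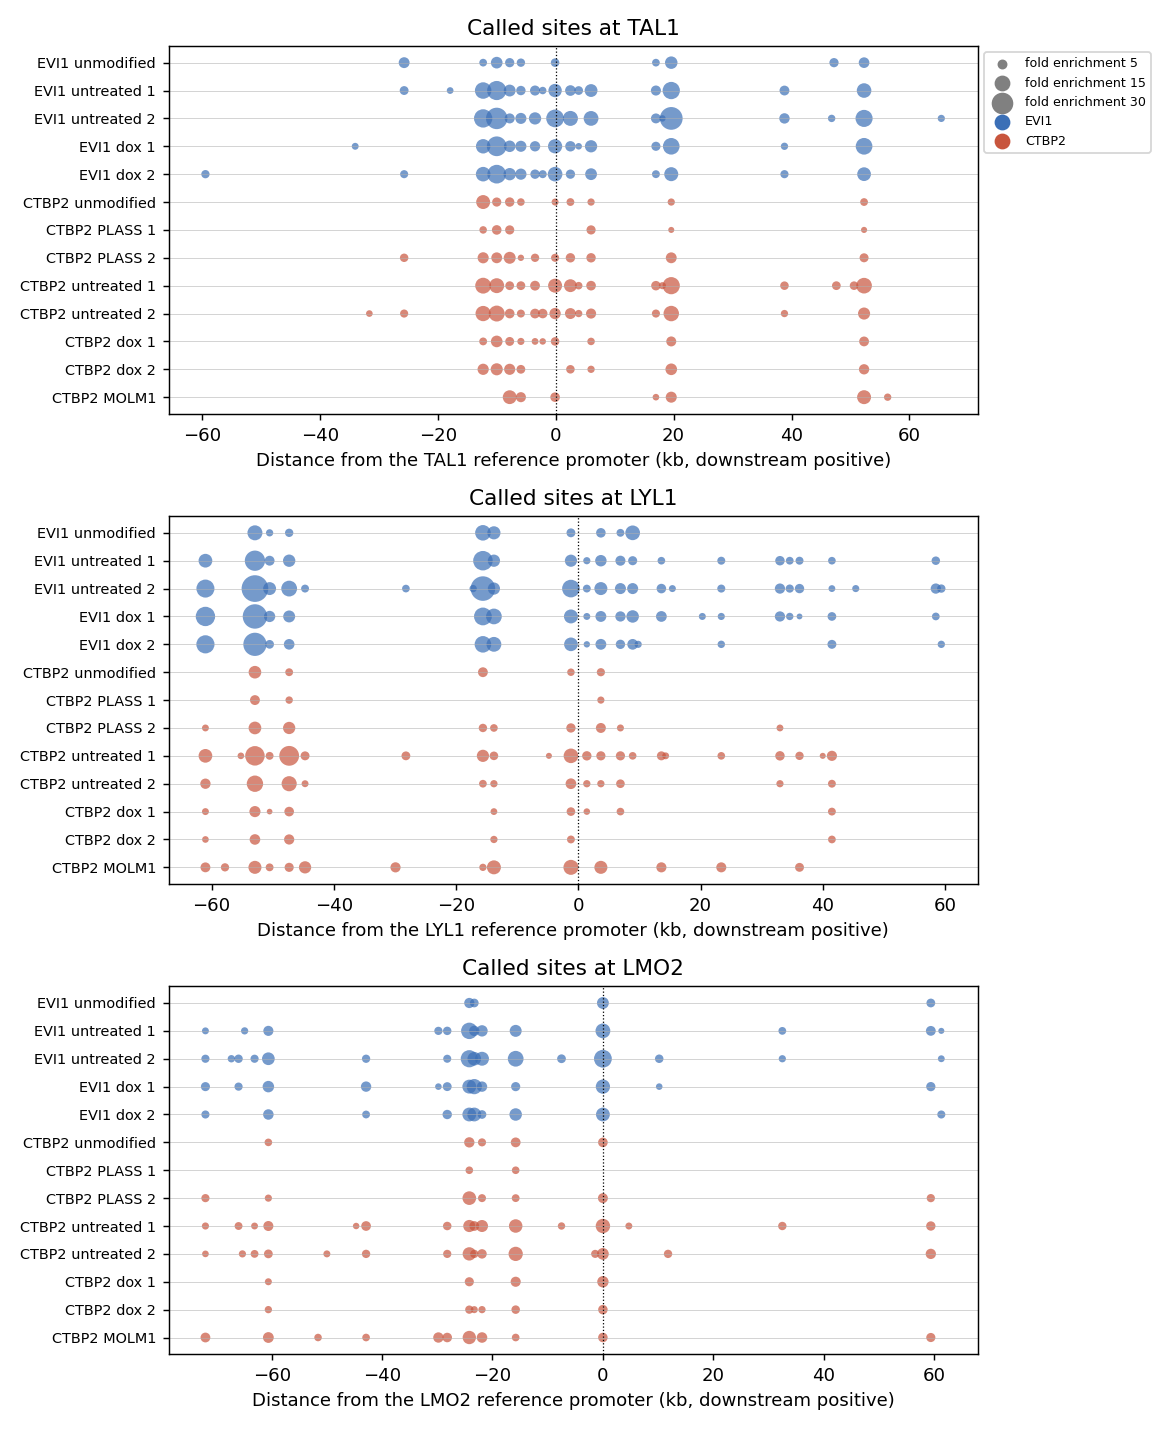
Sites called at TAL1, LYL1 and LMO2 in the 13 lists, with distance from the reference promoter in kb on the x axis, libraries on the y axis and dot area proportional to MACS2 fold enrichment. EVI1 (blue) and CTBP2 (red) share most positions, and the CTBP2 dox rows hold fewer dots than the CTBP2 untreated rows.

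The TAL1 site at +19.6 kb, chr1:47677175-47678334, was intergenic and lay at the distance of the stem cell enhancer. Its fold enrichment over the local background was 11.98 for EVI1 and 4.00 for CTBP2 in unmodified MUTZ3. In the untreated inducible line it was 22.95 and 39.66 for EVI1 (ranks 1429 of 51389 and 806 of 72214) and 22.65 and 18.33 for CTBP2 (ranks 1482 of 62232 and 1501 of 56526). With dox the values were 21.14 and 15.06 for EVI1 and 7.63 and 10.38 for CTBP2. Both dox libraries lay below both untreated libraries for both proteins, and the EVI1 dox values lay closer to the untreated range. MOLM1 CTBP2 was called there at 9.34, and the 2 PLASS libraries at 2.80 and 9.06.

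The other element distances at TAL1 also held sites. At +52.3 kb, chr1:47644576-47645603, in an exon of LINC00853, CTBP2 was called at 18.80 and 11.21 untreated, 7.39 and 8.15 with dox, and 14.92 in MOLM1. EVI1 there was 16.30 and 22.41 untreated and 21.31 and 14.46 with dox, so that its groups overlapped. Near -4 kb, the site at -5.9 kb was called in 12 lists and that at -3.5 kb in 8. CTBP2 at -3.5 kb was 7.40 and 7.28 untreated and 3.54 in dox replicate 1, with no call in dox replicate 2. The site at +6.0 kb, in a TAL1 intron, was called in 11 lists, with CTBP2 at 7.13 and 7.86 untreated and 4.33 and 4.08 with dox. EVI1 at +6.0 kb was also lower with dox, at 12.64 and 16.75 untreated and 11.53 and 10.68 with dox (limma adjusted p = 0.625). Weaker sites within reach of these distances were -2.2 kb (4 lists), +18.1 kb (2 lists) and +50.6 kb (1 list).

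In EVI1, the strongest peaks of the TAL1 window in 3 of the 4 libraries of the inducible line lay upstream of the gene, at -10.0 kb, chr1:47706579-47708119. EVI1 fold enrichment there was 28.12 and 35.25 untreated and 29.86 and 26.78 with dox, and the groups overlapped. CTBP2 at the same site was 17.08 and 19.49 untreated and 10.40 and 11.21 with dox. The neighbouring site at -12.3 kb was the strongest CTBP2 site of the locus in unmodified MUTZ3, with a fold enrichment of 14.94 (rank 405 of 16836), while EVI1 in the same cells reached 4.58 (rank 16304 of 21505). The inducible line did not show this contrast. EVI1 at -12.3 kb was 20.90 and 25.79 untreated and 15.95 and 16.28 with dox, and CTBP2 was 19.33 and 17.92 untreated and 4.74 and 9.67 with dox. Neither -10.0 nor -12.3 kb was called in MOLM1, where the strongest TAL1 sites were +52.3 kb (14.92) and -7.8 kb (14.67). In MUTZ3 the CTBP2 values at -7.8 kb were 5.95 and 7.13 untreated and 6.10 and 9.49 with dox, and the groups overlapped.

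At the TAL1 promoter, the site at -0.1 kb (chr1:47696442-47698624) was called in 11 lists. EVI1 was 13.73 and 24.16 untreated and 15.45 and 16.40 with dox. CTBP2 was 15.06 and 9.82 untreated and 5.63 in dox replicate 1, with no call in dox replicate 2. The site at +2.5 kb, within 1 kb of an alternative TAL1 start, was called in 9 lists, with CTBP2 at 12.73 and 9.18 untreated and 5.60 in dox replicate 2 alone. EVI1 at +2.5 kb was 8.72 and 17.21 untreated and 8.29 and 6.59 with dox (limma adjusted p = 0.288). EVI1 was called in all 4 libraries of the inducible line at both promoter sites.

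At the LYL1 promoter, the site at -1.2 kb (chr19:13212936-13216751, with the CTBP2 summit of untreated replicate 1 in the LYL1 UTR) was called in 12 lists, all but PLASS replicate 1. CTBP2 was 16.31 and 8.77 untreated and 5.70 and 4.76 with dox, so that both dox values lay below. EVI1 was 11.33 and 23.83 untreated and 14.88 and 14.29 with dox, inside the untreated range. These EVI1 values came from different places of the site. The summit of untreated replicate 1 was at chr19:13213653, and those of untreated replicate 2 and both dox libraries lay from 13215274 to 13215297. In MOLM1 the -1.2 kb site was the strongest CTBP2 site of the LYL1 window, at 17.24 (rank 4366 of 64569), against 4.31 in unmodified MUTZ3. Their summits differed, at chr19:13213665 in MOLM1 and chr19:13215089 in unmodified MUTZ3. A second promoter site at +1.4 kb was weaker, with EVI1 between 3.11 and 4.72 in the 4 libraries of the inducible line and CTBP2 at 6.74 and 4.08 untreated.

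Stronger peaks of the LYL1 window lay at or near other genes. The site at -52.9 kb, chr19:13265134-13267916, was intergenic and in all 13 lists, with EVI1 at 31.47 and 54.59 untreated and 45.71 and 41.35 with dox (rank 211 of 53806 and 194 of 47599 with dox). CTBP2 there was 29.18 and 20.55 untreated and 9.50 and 8.62 with dox. EVI1 groups overlapped and CTBP2 groups did not. The site at -47.3 kb, at the promoters of IER2, an immediate early gene, and STX10, was the strongest CTBP2 site of the window in untreated replicate 1 (30.05, rank 519) and was 17.56 in untreated replicate 2, against 7.11 and 8.01 with dox. EVI1 at -47.3 kb was 11.68 and 19.11 untreated and 10.94 and 8.68 with dox. Both dox values there lay below both untreated values for both proteins (EVI1 limma adjusted p = 0.387). At -61.0 kb, a site that runs past the edge of the window, CTBP2 peaks touching the window were 14.39 and 8.17 untreated and 3.69 and 3.41 with dox. These are not the same place, with summits at chr19:13275397 and 13275377 untreated and 13273986 and 13274015 with dox. Over the whole site the dox values were 7.01 and 7.36 (log2 difference -0.59, limma adjusted p = 0.226). The site at -13.8 kb, also near the NACC1 and TRMT1 starts, carried EVI1 at 11.52 and 11.40 untreated and 18.94 and 16.83 with dox (limma adjusted p = 0.364).

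The LYL1 site at -15.6 kb, chr19:13228365-13230216, lay within 1 kb of the starts of NACC1 and TRMT1 and kept its EVI1 calls with dox while its CTBP2 calls were lost. EVI1 was 29.12 and 46.18 untreated (ranks 705 and 505) and 24.22 and 21.01 with dox (ranks 1451 and 1506). Both EVI1 dox values thus lay below both untreated values (log2 difference -0.70, limma adjusted p = 0.311). CTBP2 was 11.45 and 4.58 untreated (ranks 9889 of 62232 and 39179 of 56526) and was called in neither dox library, so the difference between the proteins could not be tested. In unmodified MUTZ3 it was the strongest EVI1 site of the window at 18.56 (rank 630 of 21505), with CTBP2 at 7.44, and in MOLM1 CTBP2 was 4.06.

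The proximal LMO2 promoter, at 0.0 kb (chr11:33890266-33892522), was called in 12 lists. EVI1 was 16.82 and 24.30 untreated and 15.58 and 14.67 with dox. CTBP2 was 15.93 and 10.60 untreated and 9.93 and 6.93 with dox. The distal promoter site at -21.9 kb was weaker, with CTBP2 at 11.11 and 6.87 untreated and a single dox call of 4.02. EVI1 at -21.9 kb was 9.89 and 14.87 untreated and 8.28 and 5.77 with dox (limma adjusted p = 0.227). The site at -23.3 kb, described below, also lay within 1 kb of the distal start. Both dox values lay below both untreated values for both proteins at 0.0 kb.

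Upstream of LMO2, the site at -24.2 kb (chr11:33915169-33916052) matched the -25 element by distance and was the only LMO2 site in all 13 lists. EVI1 was 20.74 and 22.65 untreated and 14.86 and 14.66 with dox, and CTBP2 was 11.36 and 13.66 untreated and 6.38 and 5.29 with dox. In MOLM1 CTBP2 was 13.63, the highest of the LMO2 window. The adjoining site at -23.3 kb, which also lay within 1 kb of the distal LMO2 start, carried EVI1 at 8.16 and 14.15 untreated and 17.82 and 14.68 with dox. Both EVI1 dox values there lay above both untreated values (log2 difference 0.59, limma adjusted p = 0.411). CTBP2 at -23.3 kb was 7.30 and 5.27 untreated and 3.81 in dox replicate 2 alone. The intronic site at -15.8 kb carried CTBP2 at 13.99 and 15.62 untreated and 7.88 and 5.57 with dox. At -60.6 kb CTBP2 was 7.71 and 5.91 untreated and 3.76 and 4.10 with dox, and at -42.9 kb it was 7.22 and 5.35 untreated with no dox call. No site lay within 2.5 kb of -12 or -75 kb. Sites within 2.5 kb of the far distances -64 and -70 kb were weak, and the stronger site at -60.6 kb lay outside that reach. At -72.0 kb, near the -70 distance, EVI1 lay between 3.69 and 6.31 in the 4 libraries of the inducible line. CTBP2 there was 3.89 and 3.40 untreated, with no dox call, while MOLM1 CTBP2 was 7.36. Around -64 kb, sites at -63.1, -64.9, -65.3 and -66.0 kb were called in 3, 1, 1 and 3 lists.

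The windows held more sites of both proteins than the median gene window. Counting only sites that each untreated library of the inducible line called, the TAL1 window held 12 EVI1 and 13 CTBP2 sites, the LYL1 window 19 and 12, and the LMO2 window 10 and 11, where the median protein-coding gene had 4 of each. Per 100 kb the windows held 8.83, 15.3 and 6.51 EVI1 sites against a median of 2.41, and 9.56, 9.67 and 7.17 CTBP2 sites against 2.31. The EVI1 counts of TAL1, LYL1 and LMO2 exceeded those of 87.4%, 98.0% and 80.5% of protein-coding genes. For CTBP2 these shares were 92.8%, 90.4% and 87.6%. The LYL1 window holds 6 protein-coding genes, TAL1 3 and LMO2 1. All 3 member promoters carried both proteins, as did 14 of 19 genes of a list of partners and relatives, where 60.3% of all protein-coding genes had EVI1 and 57.4% CTBP2 within 1 kb of a start. The 14 were LDB1, TCF3, TCF4, TCF12, GATA2, RUNX1, ERG, FLI1, CBFA2T3, SSBP2, SSBP3, SSBP4, LMO4 and NHLH1. The 5 without either were GATA1, LMO1, LMO3, TAL2 and NHLH2. The shares over all genes are for each protein on its own, and the share with both was not computed. The median window of these 19 genes held 6 EVI1 and 5 CTBP2 sites. Site density among them was highest at SSBP4, with 11.8 EVI1 and 10.3 CTBP2 sites per 100 kb. The LMO3 and NHLH2 windows held 0 of either.

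In unmodified MUTZ3, 15 of 22 CTBP2 peaks of the loci overlapped an EVI1 peak, or 68.2% (95% Wilson interval 47.3 to 83.6), against 54.5% of all CTBP2 peaks. The shares were 7 of 9 at TAL1, 6 of 7 at LYL1 and 2 of 6 at LMO2. Seen from EVI1, 17 of 33 peaks overlapped CTBP2 (51.5%, interval 35.2 to 67.5) against 43.0% of all. In the untreated inducible line 31 of 36 CTBP2 sites held an EVI1 site, where 82.5% of all CTBP2 sites did, and 32 of 41 EVI1 sites held a CTBP2 site, where 75.9% did. At TAL1 all 12 EVI1 sites held CTBP2. Both intervals for unmodified cells contain the share of the whole list, and with 1 library per target they cover counting error only.

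MOLM1 CTBP2 was called at 17 of the 22 CTBP2 peaks of unmodified MUTZ3, or 77.3% (interval 56.6 to 89.9), against 70.2% of all CTBP2 peaks. All 7 peaks at LYL1 and 5 of 6 at LMO2 had a MOLM1 peak, and 5 of 9 at TAL1. In the other direction, 18 of 45 MOLM1 peaks of the loci overlapped an unmodified MUTZ3 peak (40.0%, interval 27% to 54.5%), against 18.7% of all MOLM1 peaks. The MOLM1 list has 64569 peaks and the unmodified MUTZ3 list 16836. The cell lines also differed in construct, and by the labels in crosslinking, as the MOLM1 chromatin was fixed with DSG (disuccinimidyl glutarate) and formaldehyde and the unmodified MUTZ3 CTBP2 chromatin with formaldehyde alone. The study's sample table gives a single crosslink for MOLM1 CTBP2, so this point is uncertain, and line, construct and crosslink cannot be told apart. EVI1 in MOLM1 was not analysed here.

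Peak numbers at the loci were lower for CTBP2 with dox. The loci held 59 and 48 CTBP2 peaks untreated and 26 and 22 with dox, a log2 ratio of the means of -1.16 (exact two-sided permutation test, p = 0.333, the smallest that 2 against 2 libraries allow). The whole CTBP2 lists fell by 1.29 on the same scale, from 62232 and 56526 peaks to 24588 and 23878. When each list was reduced to the size of the smallest by fold enrichment, the log2 ratio at the loci was 0.16 (exact permutation p = 0.667), so the direction turned. The ratio was -0.87 at TAL1, -1.07 at LYL1 and -1.68 at LMO2. EVI1 had 52 and 59 peaks untreated and 51 and 45 with dox (log2 ratio -0.21, exact permutation p = 0.333), and its whole lists had a log2 ratio of -0.29 (exact permutation p = 0.667). The depth of the libraries is unknown.

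Both untreated libraries called CTBP2 at 36 sites of the loci. Of these, 17 were called in both dox libraries, 7 in 1 and 12 in neither, and the share kept was 56.9% ± 1.96 (SD, n = 2 dox libraries) against 48.7% ± 3.03 over the genome. Sites kept in both dox libraries made up 38.4% of all such CTBP2 sites, and sites in neither 41.0%. TAL1 kept 7 of 13 in both, LYL1 6 of 12 and LMO2 4 of 11. With lists of equal size the share kept at the loci was 87.5%. Of the 41 EVI1 sites, 32 were kept in both, 7 in 1 and 2 in neither, a share kept of 86.6% ± 8.62 (SD, n = 2), against 84.5% ± 5.20 over the genome, where 78.1% were kept in both. All 12 EVI1 sites of TAL1 were kept in both dox libraries.

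**Figure D2:**
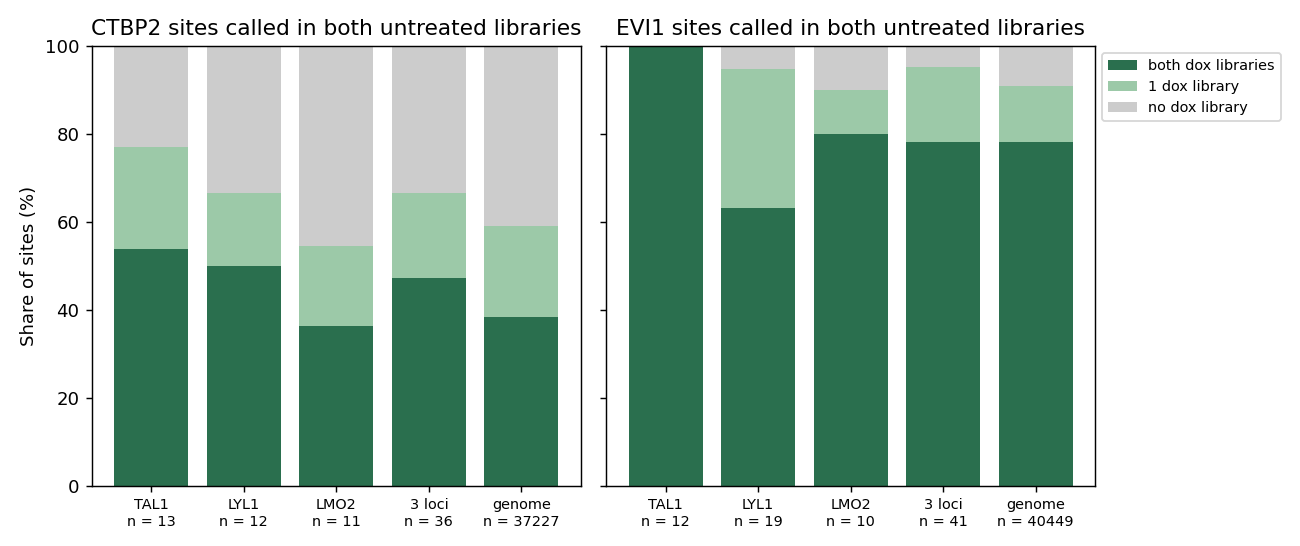
Sites that each untreated library called, split by whether both, 1 or no dox library called them (y axis, percent of sites), for CTBP2 (left) and EVI1 (right), by locus and over the genome, with the number of sites (n) under each bar. CTBP2 sites in no dox library were 12 of 36 at the loci, and EVI1 sites 2 of 41.

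The fate of a CTBP2 site moved with its strength before dox. All CTBP2 sites were ranked on the enrichment of untreated replicate 1 and split into 5 groups of like size, and in the strongest group (12.9 or more) 10 of 11 at the loci were called in both dox libraries, against 81.4% over the genome. The exception was the TAL1 promoter site, with 1 dox call. In the weaker 2 of the 5 groups, 10 of 15 sites at the loci were called in neither, against 62.5% over the genome. The 12 sites with no CTBP2 call in either dox library were +38.7, +17.0 and +4.1 kb at TAL1, +59.4, -28.2, -42.7, -63.1 and -72.0 kb at LMO2, and +32.9, +4.1, -15.3 and -44.7 kb at LYL1, where the site at -15.3 kb is the CTBP2 part of that named -15.6 kb. The CTBP2 fold enrichment of 11 of the 12 in untreated replicate 1 was between 3.63 and 7.22, and that at -15.3 kb was 11.45. EVI1 was called in both dox libraries at 7 of the 12, where 52.3% of all CTBP2 sites lost with dox had EVI1 in both. MOLM1 CTBP2 was called at 7 of the 12, against 42.8% of all lost sites. A site without a call has no value in the list and may still hold signal under the calling threshold.

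**Figure D3:**
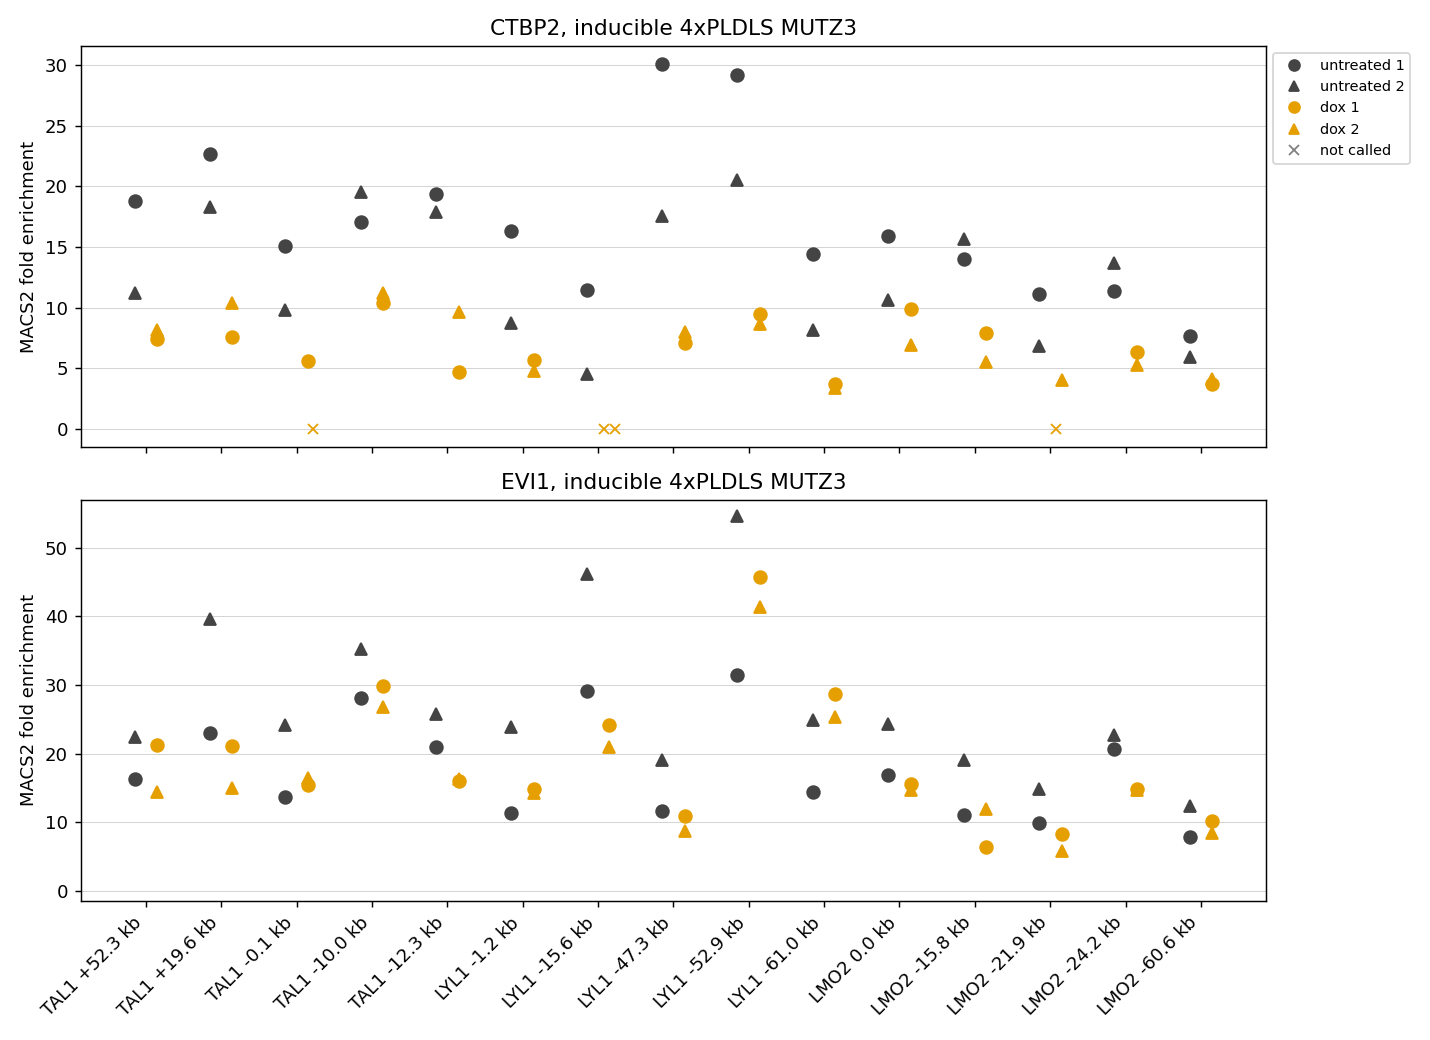
MACS2 fold enrichment (y axis) of CTBP2 (top) and EVI1 (bottom) in the inducible line at the 5 sites of each locus with the highest CTBP2 value in untreated replicate 1, with each library as a point (untreated grey, dox orange, replicate 1 circles, replicate 2 triangles). Crosses at 0 mark libraries with no call. CTBP2 at LYL1 -15.6 kb had no call with dox, while EVI1 there was 24.22 and 21.01 with dox, against 29.12 and 46.18 untreated. At LYL1 -61.0 kb the CTBP2 dox points (3.69 and 3.41) come from another summit than the untreated points. Over that whole site the CTBP2 dox values were 7.01 and 7.36.

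Sites called in all 4 libraries of a target were compared by limma on log2 fold enrichment, with p-values adjusted by Benjamini-Hochberg over all such sites. Within each target the fit used the same spread for every site, pooled over all sites tested. The SE was thus 0.41 at every CTBP2 site of the loci, however far apart its own replicates lay. Of 17 CTBP2 sites of the loci, 7 had a lower fold enrichment with dox and 0 a higher one, where 43.9% of 14297 sites tested were lower. The median difference was -0.83 on the log2 scale at the loci and -0.86 over all sites. Both dox values lay below both untreated values at 15 of the 17 sites, against 72.5% of all, and above them at 0, against 1.97%. The 7 lower sites were LYL1 -47.3 kb (log2 difference -1.61 ± 0.41 SE, limma adjusted p = 0.00108), TAL1 -12.3 kb (-1.46, adjusted p = 0.00291), LYL1 -52.9 kb (-1.44, adjusted p = 0.00338), LYL1 -1.2 kb (-1.20, adjusted p = 0.0138), TAL1 +19.6 kb (-1.19, adjusted p = 0.0141), LMO2 -15.8 kb (-1.16, adjusted p = 0.0171) and LMO2 -24.2 kb (-1.10, adjusted p = 0.0233). The LMO2 proximal promoter (-0.65, adjusted p = 0.185), TAL1 +52.3 kb (-0.90, adjusted p = 0.0621) and TAL1 -10.0 kb (-0.76, adjusted p = 0.119) did not pass. The least negative values were those of TAL1 -7.8 kb (0.22, adjusted p = 0.663) and TAL1 -5.9 kb (-0.17, adjusted p = 0.744).

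The calls were lost once the median of each library was removed. The limma fit then called 0 of the 17 sites and 0 of the 14297, with adjusted p-values between 0.12 and 0.993 at the loci and 2 of the 17 under 0.05 unadjusted. The number of lower sites was 0 of 20 without dox replicate 1 (3.99% of all sites), 1 of 21 without dox replicate 2 (5.17%), 6 of 17 without untreated replicate 1 (32.3%) and 11 of 17 without untreated replicate 2 (60.7%).

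For EVI1, limma called 0 of 33 sites of the loci, with 2 under 0.05 unadjusted, where 4.12% of 31340 sites tested were called (1070 lower and 220 higher, or 459 lower and 590 higher with library medians removed). The median difference was -0.28 at the loci and -0.23 over all sites, with single sites between -0.81 and 0.64 (SE 0.39). Both dox values lay below both untreated values at 14 of the 33, against 35.5% of all, and above them at 6, against 13.3%. Without EVI1 untreated replicate 1, 5 of 34 sites were called lower, against 15.9% of all, which were TAL1 +19.6 and +2.5 kb, LMO2 -15.8 and -21.9 kb, and LYL1 -15.6 kb.

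**Figure D4:**
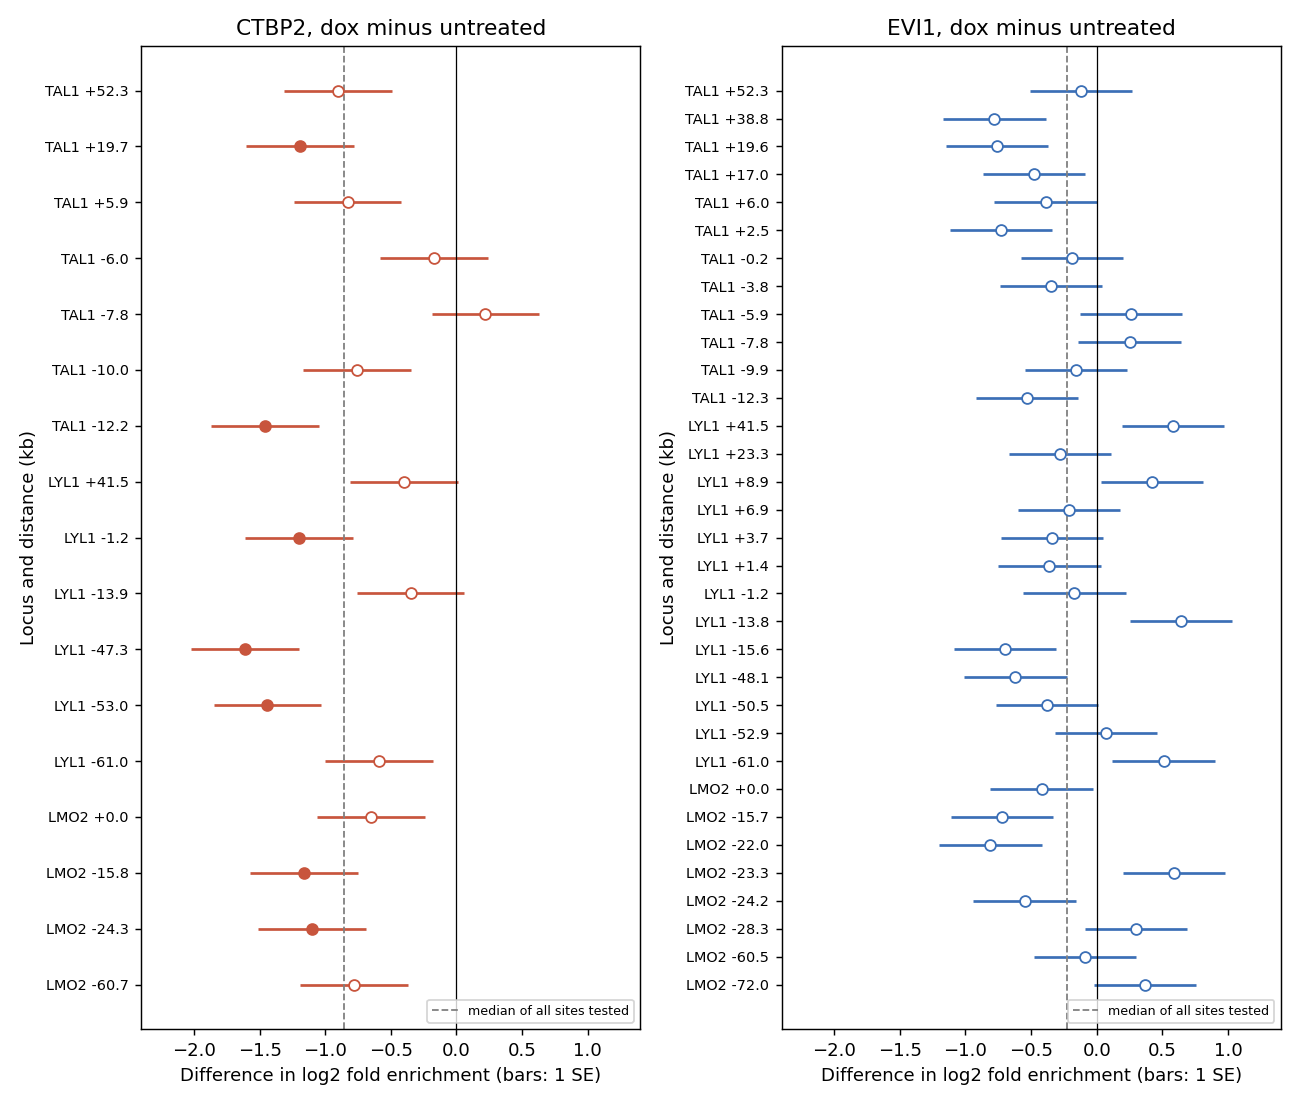
Difference in log2 fold enrichment between dox and untreated (x axis, bars 1 SE) at sites called in all 4 libraries of CTBP2 (left, 17 sites) and EVI1 (right, 33 sites), with filled points for a limma adjusted p under 0.05 and a dashed line at the median of all sites tested. Sites were merged over the lists of each fit, so their middles can differ slightly from the names in the text; the CTBP2 points scatter around a median of -0.86 and the EVI1 points around -0.23.

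The dox effects on both proteins were compared directly at the 17 sites of the loci called in all 8 libraries. The CTBP2 effect was more negative than the EVI1 effect at all 17, as at 93.0% of all sites tested, with a median difference of -0.69 on the log2 scale, which was also the median over the 13268 sites tested. At 3 of the 17 sites, all at LYL1, both dox values lay below both untreated values for CTBP2 and above them for EVI1, against 5.18% of all. The limma interaction called 0 of the 17 and 0% of all sites, with 1 and 1968 under 0.05 unadjusted. The site with the lowest unadjusted p was LYL1 -52.9 kb (CTBP2 effect minus EVI1 effect -1.51 ± 0.57 SE, limma adjusted p = 0.303). At TAL1 +19.6 kb the difference was -0.44 ± 0.57 and at LMO2 0.0 kb -0.23 ± 0.57. An interval of 2 SE around each of these last values contains both 0 and the genome median, so neither an effect on CTBP2 alone nor an equal effect on both was resolved.

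The CTBP2 lists of PLASS cells give a further view of the loci in MUTZ3; for these too the labels give DSG and the study's sample table a single crosslink. They held 12 and 37 peaks at the loci, out of lists of 6688 and 31310, and every site of the first was also in the second. Both lists called TAL1 -12.3, -10.0, -7.8, +6.0, +19.6 and +52.3 kb, LYL1 -52.9, -47.3 and +3.7 kb, and LMO2 -24.2 and -15.8 kb. None of the promoter sites of the 3 genes was called in PLASS replicate 1. PLASS replicate 2 called TAL1 -0.1 kb at 5.02, LYL1 -1.2 kb at 6.64 (summit at chr19:13215268) and the proximal LMO2 promoter at 7.60.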

How the data were processed

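Narrow peak lists of 13 libraries were used, out of 31 samples; the other samples were not analysed here. Alignment to hg19 (Bowtie) and peak calling against input (MACS2, library by library) were done by the authors, with 1 untreated and 1 dox input serving both targets of the inducible line. The submitters' processing notes list Bowtie 1.1.1, MACS2 2.1.2, deepTools 3.5.1 and bcl2fastq 1.8.4. The deposited values are the fold enrichment at the summit, a ratio over local background, and the −log10 p-value and −log10 q-value of MACS2. The deposited score follows the q-value and was not used. The lists hold no read counts, so depth is unknown, and Wilson intervals cover counting error only.

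Members and lists were chosen with earlier results of these data known. The sites named were those within 1 kb of a member start, those within 2.5 kb of a known element distance (TAL1 -4, +20 and +51 kb; LMO2 -12, -25, -64, -70 and -75 kb and its distal promoter), the 3 other sites per locus with the highest CTBP2 value in untreated replicate 1, sites in all 13 lists, and sites with CTBP2 in both untreated and no dox library. Elements were matched by distance alone. Genes came from GENCODE release 44 mapped to GRCh37. The partner list is LDB1, TCF3, TCF4, TCF12, GATA1, GATA2, RUNX1, ERG, FLI1, CBFA2T3, SSBP2, SSBP3, SSBP4, LMO1, LMO3, LMO4, TAL2, NHLH1 and NHLH2. Summit windows (100 bases on either side) were read from GRCh37, and 50453 of the 51389 EVI1 summits of untreated replicate 1 lay on sequences named in that genome.

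The study tested read counts under peaks, which need the reads, so that test was not run here. Peak numbers were compared by exact permutation tests and fold enrichments by limma 3.58.1 (R 4.3.3) on the log2 scale, using the highest peak of a site, with no pseudocount since a site without a peak has no value. Sites were merged over the lists of each comparison, so their numbers differ between kept shares and fits. The fits were tested on simulated data in which 200 sites changed by 2 on the log2 scale. With the pooled spread of the real libraries, limma recovered 94.5% of them for CTBP2 (14297 sites), 93% for EVI1 (31340 sites) and 36.5% for the interaction (13268 sites). The other simulated sites were left unchanged. Real differences at the loci were smaller, from -1.61 to 0.22 for CTBP2 and from -0.81 to 0.64 for EVI1. Recovery of changes of that size was not tested. A first simulation that used the spread of each site on its own recovered 0% in all 3 comparisons; its prior degrees of freedom were 2.08, 2.12 and 3.97, where the real fits gave an infinite value for CTBP2 and EVI1 and 159.77 for the interaction, so it was replaced by the pooled one. Python 3.11.15 with pandas 2.3.3, scipy 1.17.1 and matplotlib 3.10.9 was used for the rest.

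Alternatives were stricter peak thresholds (−log10 q from 5, or fold enrichment from 5), flanks of 30 and 100 kb, overlaps defined by 50% of the shorter interval or by summits at most 200 bp apart, equal list sizes, sites of either untreated library, library medians removed, the widest peak of a site, replicate blocks and libraries left out in turn.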

Additional observations from a re-analysis of the deposited data

Results flagged for a closer look

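Among the 17 sites called in all 8 libraries of the inducible line, every dox library was below the untreated libraries for CTBP2 and above them for EVI1 at 3 sites, all at LYL1, where 5.18% of the 13268 such sites of the genome did so. At LYL1 +41.5 kb, in an NFIX intron, CTBP2 was 7.95 and 4.77 untreated and 4.75 and 4.60 with dox, and EVI1 was 4.48 and 3.57 untreated and 5.80 and 6.13 with dox. The CTBP2 effect minus the EVI1 effect was -0.97 on the log2 scale (limma interaction, adjusted p = 0.355). At LYL1 -61.0 kb, over its whole width, which runs past the window, CTBP2 was 14.39 and 8.17 untreated and 7.01 and 7.36 with dox, and EVI1 was 14.46 and 24.92 untreated and 28.75 and 25.30 with dox. The difference there was -1.10 (limma interaction, adjusted p = 0.337). At LYL1 -13.8 kb, near the starts of NACC1 and TRMT1, CTBP2 was 5.699 and 4.081 untreated and 3.524 and 4.078 with dox, a gap in the third decimal only, and EVI1 was 11.52 and 11.40 untreated and 18.94 and 16.83 with dox. The difference there was -0.99 (limma interaction, adjusted p = 0.353). None of the 3 differences passed the test, and their cause was not tested.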

How the results depend on the processing

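Of 86 alternative values, 68 were labelled the same as the main value. The label asked for a peak ratio of the same sign, a kept share within the SD, an overlap within its interval, or a count within a set factor. Among the 68 were 13 interaction counts and 9 EVI1 counts that were 0 as in the main fit. The CTBP2 peak ratio of -1.16 turned to 0.16 with lists of equal size. The share of CTBP2 sites kept (56.9%) was 48.3% with a −log10 q of at least 5, 33.1% for sites in either untreated library, 87.5% with lists of equal size, 54.4% with windows of 100 kb, and 35.6% to 58.3% with a library left out. The share of EVI1 sites kept (86.6%) was 63.8% for sites in either untreated library and 66.9% to 92.7% with a library left out. The overlap of unmodified CTBP2 peaks with EVI1 (68.2%) was 95.5% with the EVI1 sites of the untreated inducible line. CTBP2 sites lower with dox (7) were 0 with library medians removed, and 0 to 11 with a library left out. EVI1 sites changed (0) were 0 to 5 with a library left out. Fits without 1 library leave a group with a single library, assumed to vary like the others. Without 1 library, the peak ratios have no test.

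Replicate numbers shared only a number by the labels, and deviations of same-numbered untreated and dox libraries correlated at 0.213 for CTBP2 and -0.238 for EVI1. With the replicate block, the peak ratios were -1.15 for CTBP2 and -0.21 for EVI1, the kept shares 40.5% and 72.9%, and the sites called 8 for CTBP2, 0 for EVI1 and 0 for the interaction; with library medians also removed the block gave 0 lower CTBP2 sites and 1 higher, beside 595 lower and 903 higher over all sites. A crossed replicate block for EVI1, chosen after seeing the data, called 0 member sites and 4337 lower and 1126 higher sites in all, where the block as numbered called 101 and 28. The cause of these changes was not tested. Depth is unknown, so lost calls and lower enrichment cannot be told apart from lower depth or efficiency of the dox CTBP2 libraries.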
